A study of Mus musculus with 12 samples.

Results

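The small proline-rich genes Sprr1a, Sprr1b, Sprr2d, Sprr2e, Sprr2f, Sprr2g, Sprr2h, Sprr2i, Sprr2k and Sprr3 were followed in mouse tongue across 4 groups of animals. These 10 genes were taken by symbol from 23235 gene rows, and all 10 had a level in every group. A further 4 rows, Sprr2a2, Sprr2b, Sprr2j-ps and Sprr4, carry an Sprr symbol and are described beside them. RNA came from the tongue of C57BL/6 mice aged 31 weeks, with 12 samples in 4 treatment groups of 3: 4-NQO/EtOH, 4-NQO/Untr., V.C./EtOH and V.C./Untr. in the spelling of the labels. 4-NQO (4-nitroquinoline oxide) is a DNA-damaging carcinogen given to mice to produce oral cancers, EtOH is ethanol, Untr. is untreated, and V.C. is not spelled out. The labels used here give no dose, no length of treatment, and no word on whether the piece of tongue held a lesion. In the tables the groups carry only the numbers 1 to 4, which nothing in the sources ties to a treatment. No treatment is therefore named for any group below, and the order of the treatments above is not meant as that of the numbers. Each level is the authors' FPKM (fragments per kilobase, a level corrected for transcript length and library size) for a whole group; values per sample were not used here, and the read depth is unknown.

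SPRR proteins are precursors of the cornified cell envelope, the cross-linked protein shell that replaces the plasma membrane of a terminally differentiating squamous cell. Transglutaminases join glutamine and lysine residues in the head and tail of each SPRR protein to loricrin, involucrin and one another, so that the proline-rich repeats between them act as flexible bridges. The genes stand together in the epidermal differentiation complex, beside genes for involucrin, loricrin and the late cornified envelope proteins. Sprr1 and Sprr3 genes are known from the lining of the mouth and oesophagus as well as from stressed skin, and Sprr2 genes from differentiating and injured epithelia. AP-1, Ets, Klf and octamer (POU domain) sites are known from work on human SPRR promoters.

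All 10 genes lay on mm9 chromosome 3 within a family of 14 rows that spanned 249.8 kb. The 7 Sprr2 genes ran on the plus strand between 92143062 and 92237849, and Sprr1b, Sprr3 and Sprr1a followed on the minus strand up to 92289803. The annotation (GENCODE M1) gave 2 exons to 8 of them, 3 exons to Sprr2g and 1 exon to Sprr3. The Sprr3 model, 92260697 to 92261539, covers only part of the deposited Sprr3 locus, 92260424 to 92262642. The shared stretches of Sprr3 below were counted on that model. Sprr2g is listed in the files under a noncoding RefSeq identifier, whereas GENCODE M1 classes it as protein coding. Between genes, 50-base stretches of transcript shared with another Sprr gene made up 10.6% of Sprr2i, 10.2% of Sprr2e, 4.27% of Sprr2d and 0.714% of Sprr2f, and none of the other 6. No stretch was shared with a protein-coding transcript of a gene outside the family. Noncoding transcripts and the rest of the genome were not searched for these stretches. The read length and the treatment of reads with several matches are not given in the sources used here, so how far Sprr2i and Sprr2e, which shared most with each other, exchanged reads was not tested.

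The promoters show what the Sprr2 genes have in common. RefSeq promoter windows (GRCm38.p6, 250 bases before to 50 bases after the start) were found for 9 of the 10 genes, all but Sprr2g. The stretch from 200 to 96 bases before the start of each was sought on mm9 chromosome 3 and matched exactly once. The rest of the window and the other chromosomes were not searched. Coordinates below are mm9. That stretch is printed for 8 of the 9 genes because it holds all the AP-1 and octamer matches found in the 9 windows. AP-1 matches (TGANTCA, both strands) and octamer matches (ATGCAAA, both strands, here read as its reverse complement) are in capitals.
Sprr2d (chr3:92142862-92142966, plus strand): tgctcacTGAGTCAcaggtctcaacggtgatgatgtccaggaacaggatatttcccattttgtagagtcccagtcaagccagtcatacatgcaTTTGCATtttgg
Sprr2e (chr3:92155865-92155969, plus strand): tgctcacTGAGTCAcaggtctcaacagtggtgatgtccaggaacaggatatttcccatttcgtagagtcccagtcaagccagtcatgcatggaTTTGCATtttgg
Sprr2i (chr3:92211713-92211817, plus strand): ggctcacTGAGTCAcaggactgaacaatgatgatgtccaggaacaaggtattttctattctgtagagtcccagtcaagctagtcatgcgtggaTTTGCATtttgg
Sprr2h (chr3:92189407-92189511, plus strand): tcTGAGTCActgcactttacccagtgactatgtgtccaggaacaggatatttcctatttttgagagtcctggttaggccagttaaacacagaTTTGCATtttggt
Sprr2k (chr3:92236304-92236408, plus strand): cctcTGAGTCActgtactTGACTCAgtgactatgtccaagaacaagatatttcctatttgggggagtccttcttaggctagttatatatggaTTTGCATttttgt
Sprr1b (chr3:92242797-92242901, minus strand): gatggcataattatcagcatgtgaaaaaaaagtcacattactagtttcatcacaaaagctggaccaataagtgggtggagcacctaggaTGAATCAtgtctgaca
Sprr1a (chr3:92289899-92290003, minus strand): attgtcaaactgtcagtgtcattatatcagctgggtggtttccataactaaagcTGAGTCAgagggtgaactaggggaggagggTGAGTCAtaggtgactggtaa
Sprr3 (chr3:92262738-92262842, minus strand): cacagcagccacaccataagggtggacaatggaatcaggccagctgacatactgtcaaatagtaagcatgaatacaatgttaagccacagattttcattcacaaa

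Every one of the 6 Sprr2 promoters held an AP-1 match and, nearer the start, an octamer match. Sprr2d, Sprr2e and Sprr2i had both at the same positions, with the AP-1 match at -193 to -187 and the octamer match at -107 to -101 from the start. Sprr2f held the same pair 4 bases further out, and Sprr2k had a second AP-1 match. Sprr1b had 1 AP-1 match and Sprr1a had 2, and neither held the octamer. Sprr3 held neither of the motifs in the window. Among all 32851 promoters of the same length, 7.81% held the AP-1 letters and 4.63% the octamer letters. A TATA box match (TATAAA) stood in 9 of 9 promoters, against 13.6% of all promoters. The other motifs searched were rarer among the 9: Ets (AGGAAGT) in Sprr2k and Sprr3 (9.35% of all promoters), the antioxidant response element (TGACNNNGC) in Sprr2f and in Sprr1a, where it overlaps an AP-1 match (12.4% of all), the interferon-stimulated response element (GAAANNGAA) in Sprr2f (8.56% of all), and Klf (CACACCC) in none (7.95% of all). The windows of Sprr2 pairs were 62.9% to 89.1% identical, with a median of 68.0% over 15 pairs, and those of the other 21 pairs 49.7% to 57.1%. A match is a stretch of letters and not a shown binding site.

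**Figure D1:**
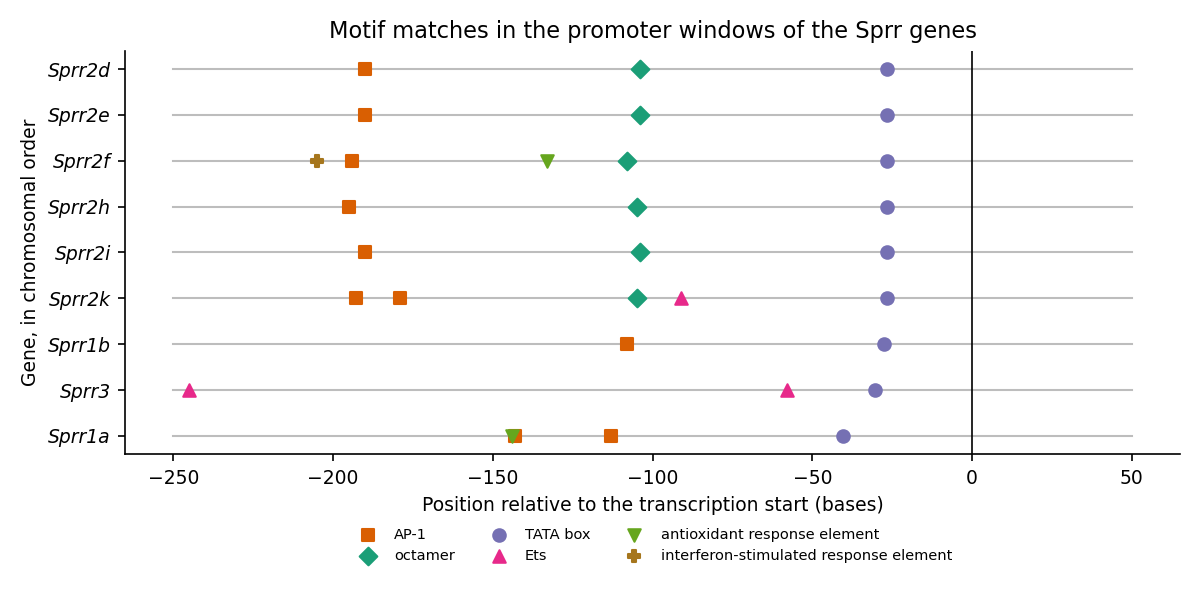
Motif matches in the promoter windows of 9 Sprr genes, by position in bases from the transcription start (vertical line); grey lines are the windows and each symbol is a match. The 6 Sprr2 genes share an AP-1, an octamer and a TATA box match in the same order; Sprr3 has neither AP-1 nor octamer.

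The levels fell into a high pair of groups and a low pair. For all 10 genes, the lower of the levels in groups 4 and 3 was above the higher of the levels in groups 2 and 1. For 8 genes the order was group 4, group 3, group 2, group 1 from high to low, and Sprr1b and Sprr2k were the 2 that stood higher in group 3 than in group 4. The genes differed far more in how low they were in groups 2 and 1 than in how high they were in groups 4 and 3.

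Sprr2d reached 1076 FPKM in group 4 and 815 in group 3, against 2.958 in group 2 and 0.9768 in group 1. Among all genes with a level read it ranked 71st and 115th in groups 4 and 3, and 9942nd and 12560th in groups 2 and 1. Sprr2i had 832.7, 651.2, 3.837 and 1.291 FPKM in groups 4, 3, 2 and 1. Both genes were among the most abundant transcripts of the tongue in one pair of groups and near the level of 1 FPKM in the other.

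Sprr2h stood at 205.8 and 161.5 FPKM in groups 4 and 3, and at 1.526 and 0.4648 FPKM in groups 2 and 1. Sprr2f, whose promoter is used to drive Cre in mouse uterine epithelium, had 168.4 and 144.1 FPKM in groups 4 and 3, and 0.6413 and 0.5032 FPKM in groups 2 and 1. Sprr2g had 139.9, 104.4, 1.117 and 0.7039 FPKM in groups 4, 3, 2 and 1. These 3 genes formed a middle tier, below Sprr2d and Sprr2i in groups 4 and 3.

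Sprr2e, at 104.7 FPKM in group 4 and 83.14 in group 3, was nearest to 0 elsewhere, with 0.1824 FPKM in group 2 and 0.04502 in group 1. The standard error (SE) of its log2 level in group 1, taken from the authors' statistics, was 1.718, against 0.302 in group 4, so its fold change is poorly fixed. Sprr2k was the least abundant of the 10 in groups 4 and 3, with 53.27 FPKM in group 4 and 55.44 in group 3, but led the Sprr2 genes in the low groups with 5.838 FPKM in group 2 and 3.518 in group 1. In groups 2 and 1, 2 and 5 of the 10 genes lay under 1 FPKM, and all of these were Sprr2 genes.

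Sprr1a, Sprr1b and Sprr3 were present in every group. Sprr1b had 533.1 and 624.1 FPKM in groups 4 and 3, against 64.27 and 40.96 FPKM in groups 2 and 1. Sprr1a had 916.2 and 816.1 FPKM in groups 4 and 3, against 242.9 and 221.8 FPKM in groups 2 and 1. Sprr3, also called esophagin, had 651.8, 441.5, 320.7 and 242.5 FPKM in groups 4, 3, 2 and 1, the narrowest range of the 10.

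**Figure D2:**
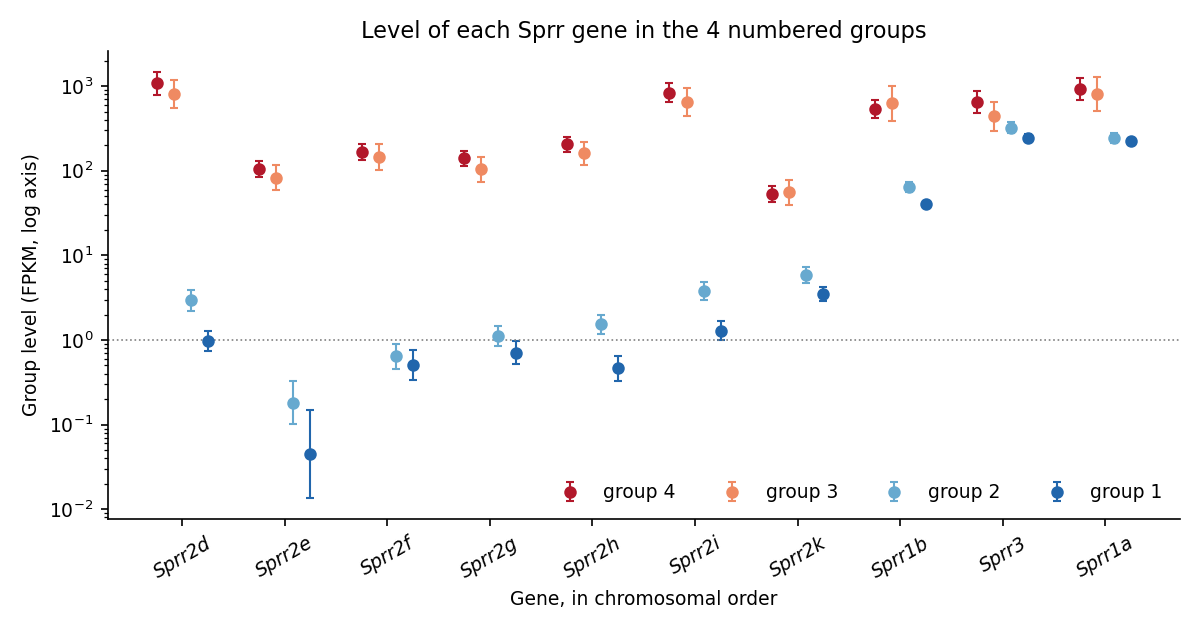
Level of each of the 10 Sprr genes (FPKM, log axis) in groups 4, 3, 2 and 1 from left to right within a gene; points are the authors' group values, bars 1 SE of the log2 level from the authors' statistics, and the dotted line marks 1 FPKM. The 7 Sprr2 genes span 53.27 to 1076 FPKM in group 4 and 0.04502 to 3.518 FPKM in group 1; Sprr3 and Sprr1a are above 200 FPKM in every group.

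The make-up of the family differed with its level. The 7 Sprr2 genes summed to 2580 FPKM in group 4 and 2015 in group 3, against 16.1 in group 2 and 7.503 in group 1. The 2 Sprr1 genes summed to 1449, 1440, 307.1 and 262.8 FPKM in groups 4, 3, 2 and 1. Of the FPKM summed over the 10 genes, Sprr2 genes took 55.1% in group 4 and 51.7% in group 3, but 2.5% in group 2 and 1.46% in group 1. Sprr3 took 13.9% and 11.3% in groups 4 and 3, and 49.8% and 47.3% in groups 2 and 1. Within Sprr2, Sprr2d and Sprr2i led in groups 4 and 3, with 41.7% and 32.3% of the Sprr2 sum in group 4, while Sprr2k led in groups 2 and 1, with 36.3% in group 2 and 46.9% in group 1. These shares are the authors' group values with no error of their own. In whole tissue, more of the cells that make a transcript and more transcript per cell cannot be told apart.

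**Figure D3:**
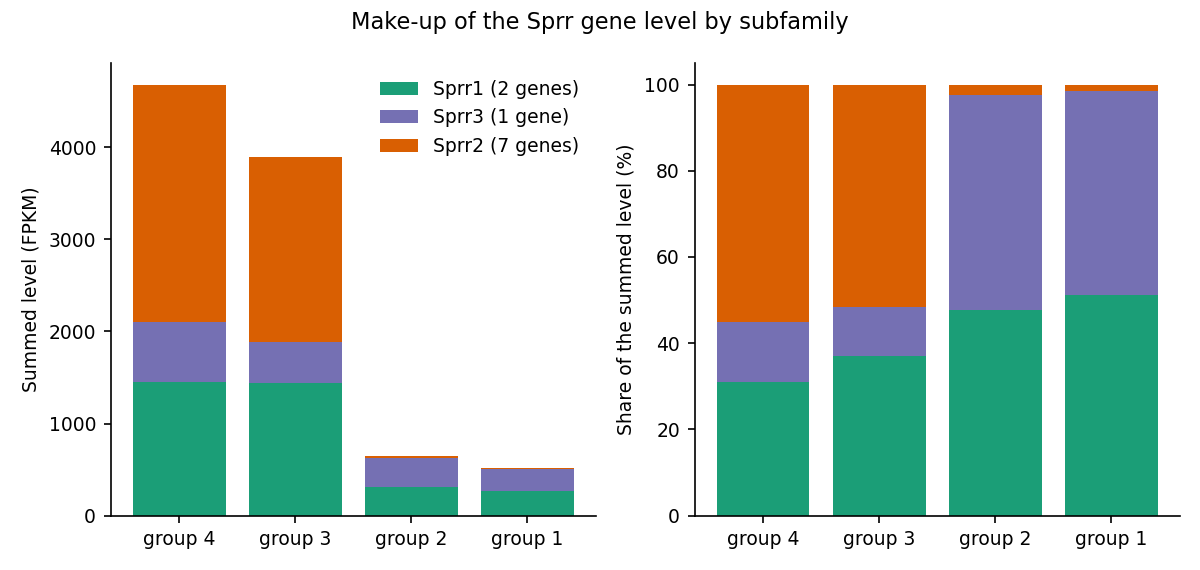
Summed level (left, FPKM) and share of the summed level (right, %) of the 2 Sprr1 genes, Sprr3 and the 7 Sprr2 genes in groups 4, 3, 2 and 1. The total is 4682, 3897, 643.9 and 512.8 FPKM in groups 4, 3, 2 and 1, and the Sprr2 share is 51.7% or more in groups 4 and 3 and at most 2.5% in groups 2 and 1.

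Of the 6 pairs, group 4 against group 1 gave the largest median difference over the 10 genes, although Sprr1b and Sprr2k differed slightly more in group 3 against group 1. A gene is called higher or lower at a deposited q under 0.05, provided that at least 1 of the groups had 1 FPKM or more. Of the 10 genes, 9 were higher in group 4 and none lower, where 4.99% of the 13106 genes tested were higher and 3.91% lower. The median difference of the 10, on the scale log2(FPKM + 1), was 6.52, against -0.08 over all genes tested. Sprr2d, Sprr2e, Sprr2f, Sprr2g and Sprr2h reached 1 FPKM in group 4 alone of this pair.

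Differences are given with their SE, taken from the authors' statistic and moved to the log2(FPKM + 1) scale. For genes near 0 FPKM in 1 group this move shrinks the SE, so it understates how poorly their fold change is fixed. For Sprr2e the authors' own statistic was 6.41 in group 4 against group 1. Sprr2d was 9.09 ± 0.49 higher in group 4, the 3rd largest difference upward of all genes tested, and Sprr2i was 8.51 ± 0.43 higher, the 6th. Sprr2h (7.14 ± 0.34), Sprr2f (6.82 ± 0.37), Sprr2e (6.66 ± 0.31) and Sprr2g (6.37 ± 0.35) ranked 9th, 11th, 15th and 18th. The rise of Sprr1b was 3.67 ± 0.37 and that of Sprr2k 3.59 ± 0.38, close to each other and well short of the rest of Sprr2. For these 8 genes the q in the authors' deposited table was at most 5.38e-08, and for 7 of them it is listed as 0.

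Sprr1a rose by 2.04 ± 0.44, with a q of 0.000464 in the authors' deposited table, and ranked 179th. Sprr3 missed the threshold at a q of 0.0505 in the authors' deposited table, with a difference of 1.42 and a 95% interval of 0.54 to 2.31. The median log2 ratio of well expressed genes (5 FPKM in both groups) was -0.16 in this pair; after centring on it Sprr3 stood at 1.58 and passed. All genes called in this pair split into 654 higher and 512 lower as deposited, and into 859 and 268 after centring.

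In group 3 against group 1, every Sprr gene but Sprr1a and Sprr3 was higher. That is 8 of 10, where 2.52% of the 13109 genes tested were higher and 0.282% lower, and none of the 10 was lower. Sprr2d, Sprr2e, Sprr2f, Sprr2g and Sprr2h reached 1 FPKM in group 3 alone of this pair. The median difference of the 10 was 6.14, against -0.04 over all genes tested. Sprr2d (8.69 ± 0.58) and Sprr2i (8.15 ± 0.58) again led, at the 5th and 8th rank. Sprr1b rose by 3.90 ± 0.69 and Sprr2k by 3.64 ± 0.54. The difference of Sprr1a was 1.87 ± 0.68 with a q of 0.124, and that of Sprr3 0.86 ± 0.59 with a q of 0.745, both from the authors' deposited table. Errors were wider in group 3 than in group 4: the typical SE of a gene's log2 level was 0.493 in group 3 and 0.332 in group 4, and Sprr1a itself differed by 0.17 ± 0.79 in group 4 minus group 3.

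**Figure D4:**
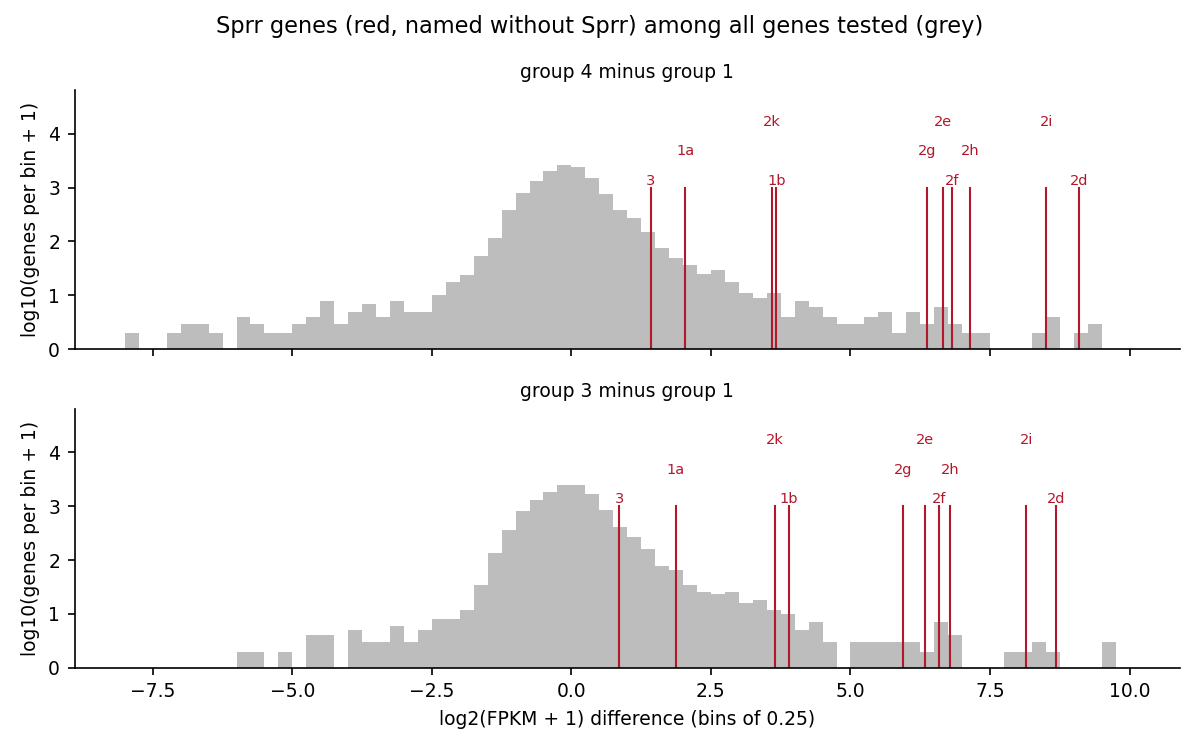
Distribution of the log2(FPKM + 1) difference over all genes tested (grey bars, log10 of genes per bin + 1) with each of the 10 Sprr genes as a red line, for group 4 minus group 1 (top) and group 3 minus group 1 (bottom). The 6 labels from 2g to 2d lie at 5.95 or more in both panels, 1b and 2k between 3.59 and 3.90, and Sprr3 is the lowest of the 10.

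Set against group 2 in place of group 1, Sprr2d and Sprr2i again had the largest differences and Sprr1a and Sprr3 the smallest. Group 4 exceeded group 2 in 9 of 10 genes (3.31% of all genes tested were higher and 2.25% lower, 434 and 295 genes as deposited and 548 and 169 after centring) with a median difference of 6.21, against -0.09 over all genes tested. Sprr2d led at 8.09 ± 0.54 and Sprr2i followed at 7.43 ± 0.47. Sprr1a rose by 1.91 ± 0.46 (q of 0.00301 in the authors' deposited table), and Sprr3 differed by 1.02 ± 0.47 and did not pass (q of 0.345 in the authors' deposited table). Group 3 exceeded group 2 in 8 of 10 (1.61% of all genes tested were higher and 0.229% lower) with a median of 5.82, against -0.04 over all genes tested. Sprr2d rose by 7.69 ± 0.63 and Sprr2i by 7.08 ± 0.61. Sprr1a differed by 1.74 ± 0.69 and Sprr3 by 0.46 ± 0.61, and neither passed. Sprr2e and Sprr2f reached 1 FPKM in groups 4 and 3 but not in group 2. The pairs with group 2 share groups with those above and are no independent repeat of them.

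Within the high pair no Sprr gene was told apart. In group 4 against group 3, none of the 10 passed and none had an unadjusted p under 0.05, where 0.171% of all 12901 genes tested were higher, 0.124% lower, and 105 genes had such a p. The differences ran from -0.23 ± 0.77 for Sprr1b to 0.56 ± 0.71 for Sprr3. The 95% intervals were narrowest for Sprr2h, from -0.71 to 1.41, and reached down to -1.73 for Sprr1b and up to 1.95 for Sprr3, so the genes are not shown to be alike in groups 4 and 3.

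Within the low pair the genes leaned one way without passing. In group 2 against group 1 all 10 differences were above 0, between 0.13 and 1.08, with a median of 0.50, against 0.02 over all genes tested. None of the 8 tested passed, where 0.587% of all genes tested were higher and 0.305% lower; Sprr2e and Sprr2f stayed under 1 FPKM in both groups. Unadjusted p-values under 0.05 were held by 4 of the 8 tested and by 433 of all 12780 genes tested. Sprr2i came nearest, with 3.837 FPKM in group 2 and 1.291 in group 1, a difference of 1.08 ± 0.35 and a q of 0.066 in the authors' deposited table. Sprr1b followed with 64.27 FPKM in group 2 and 40.96 in group 1 (0.64 ± 0.21, q of 0.0748 in the authors' deposited table). The same direction in 10 genes is no count of independent observations, since they were measured in the same animals.

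All 3 ways of setting 2 groups against the other 2 were tested with the variances implied by the authors' statistics. Groups 3 and 4 against groups 1 and 2 gave 9 of the 10 higher and none lower (7.01% and 8.81% of 13156 genes), with Sprr2d at 8.39 ± 0.40 and Sprr3 at 0.94 ± 0.38, which did not pass (adjusted p of 0.0705). Groups 2 and 4 against groups 1 and 3 gave none (0.122% of all genes higher, 0.144% lower), with estimates from 0.15 to 0.72. Groups 1 and 4 against groups 2 and 3 gave none either (0.114% of all genes higher, 0.0912% lower), with estimates from -0.43 to 0.08, and none of the 10 had an unadjusted p under 0.05 in these 2 contrasts, against 166 and 113 of all genes. The normal deviate behind these p-values has no correction for the small number of animals.

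Genes next to the family differed less than its Sprr2 members. In group 4 minus group 1 the 7 Sprr2 genes differed by 3.59 to 9.09, while the neighbouring genes within 500 kb differed by -0.20 to 1.52. Of 26 neighbours, 3 were under 1 FPKM in every group. Higher in group 4 than in group 1 were 8 of the 23 tested neighbours, where 4.99% of all genes tested were higher. In group 3 against group 1 it was 1 of 23 (2.52% of all genes tested). In group 4 against group 2 it was 3 of 22 (3.31% of all genes tested), and in the other 3 pairs none. No neighbour was lower in any pair. The cornified envelope gene Lce3c had 945, 823.8, 374.7 and 375.2 FPKM in groups 4, 3, 2 and 1, and was 1.33 ± 0.39 higher in group 4 than in group 1. Lce3b rose by 1.35 ± 0.37 to 729.5 FPKM in group 4, against 286.2 in group 1. Kprp, a keratinocyte proline-rich protein gene, rose by 1.24 ± 0.31, Lce1e by 1.23 ± 0.31, 2310050C09Rik by 1.52 ± 0.31 and 2310001H18Rik by 1.33 ± 0.33 in the same pair.

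Loricrin and involucrin, the classical partners of SPRR proteins, were not called in any pair; these and the next gene were named after their values were seen. Lor had 1274, 1224, 1227 and 1077 FPKM in groups 4, 3, 2 and 1, with a wide error (0.24 ± 0.75 in group 4 minus group 1). Ivl had 0.9336, 1.178, 0.821 and 1.228 FPKM in groups 4, 3, 2 and 1. Crct1, a cysteine-rich gene of the same complex, had 978.6, 822.7, 473.8 and 439.5 FPKM in groups 4, 3, 2 and 1 and did not pass either.

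**Figure D5:**
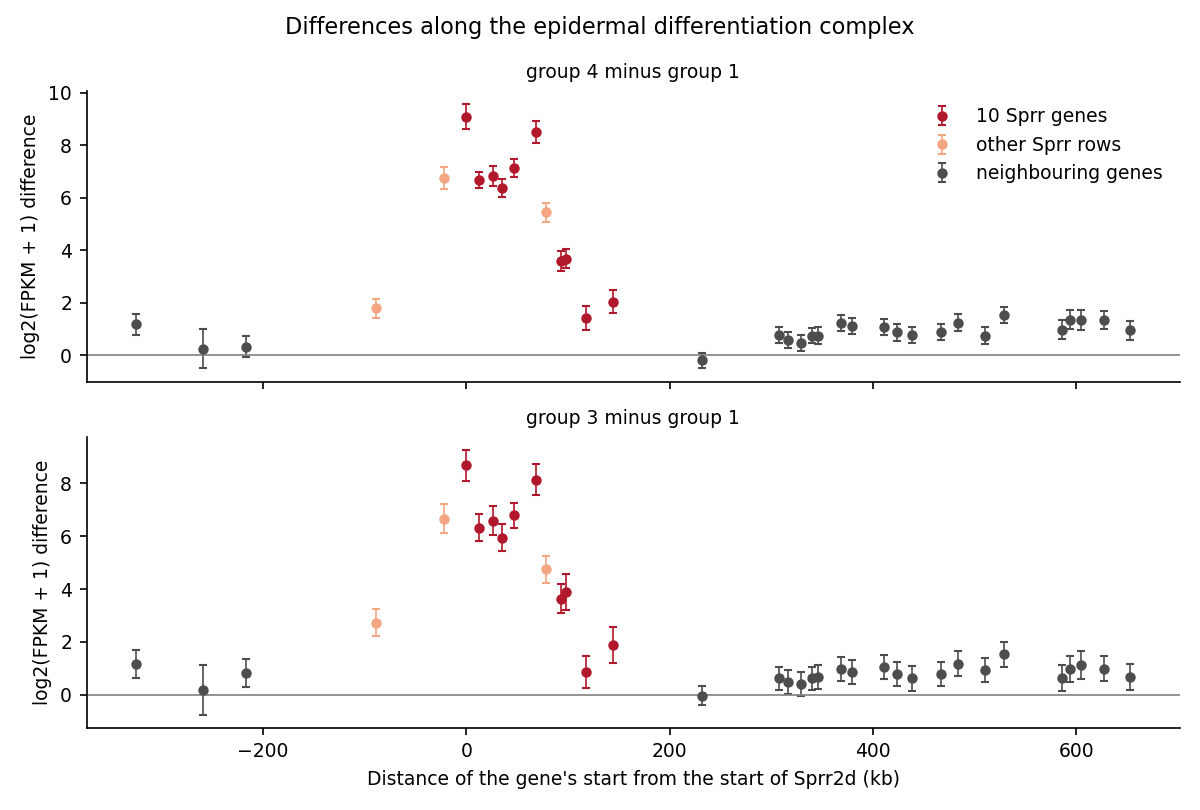
Difference on the log2(FPKM + 1) scale of the Sprr genes and of neighbouring genes tested, by distance of the gene's start from that of Sprr2d (kb), for group 4 minus group 1 (top) and group 3 minus group 1 (bottom); bars are 1 SE. From 0 to 68.9 kb the Sprr2 genes lie at 5.95 or more in both panels, Sprr2k and Sprr1b at 93.4 and 97.7 kb lie between 3.59 and 3.90, and no neighbour exceeds 1.53.

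The 4 further Sprr rows did not all follow. Sprr2b, at -22.4 kb from Sprr2d, had 547, 520.9, 6.322 and 4.134 FPKM in groups 4, 3, 2 and 1, and its promoter holds the AP-1, octamer and TATA box letters too. It was 6.74 ± 0.42 higher in group 4 than in group 1. Sprr2j-ps, named as a pseudogene, had 80.06, 49.28, 1.627 and 0.8712 FPKM in groups 4, 3, 2 and 1 (5.44 ± 0.35 in group 4 minus group 1). Sprr2a2 was higher in group 3 than in group 4, with 62.26, 120.7, 16.83 and 17.35 FPKM in groups 4, 3, 2 and 1. Its differences were 1.79 ± 0.36 in group 4 minus group 1, 2.73 ± 0.52 in group 3 minus group 1 and -0.94 ± 0.62 in group 4 minus group 3; the last did not pass. The RefSeq promoters of Sprr2a1, Sprr2a2 and Sprr2a3 held the interferon-stimulated response element letters and none of AP-1, octamer or TATA box. Of the 50-base stretches of Sprr2a2, 97.1% also occur in another Sprr gene, so its level is uncertain. Sprr4 stayed under 1 FPKM, at 0.479, 0.2553, 0 and 0.3887 in groups 4, 3, 2 and 1.

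Other cornified envelope genes differed less than the Sprr2 genes. Of 43 listed partners 41 were found. In group 4 minus group 1, 11 of 40 tested were higher and none lower, with a median difference of 0.93. Of all genes tested in that pair, 4.99% were higher and 3.91% lower. The transglutaminase gene Tgm1, whose product cross-links SPRR proteins, had 123.7, 114.1, 40.7 and 35.39 FPKM in groups 4, 3, 2 and 1, a rise of 1.78 ± 0.39 in group 4 against group 1. Tgm3, named after its values were seen, had 310.3, 357.9, 186.4 and 154.9 FPKM in groups 4, 3, 2 and 1 and did not pass. Casp14, a protease of cornification, had 8.789, 8.657, 2.063 and 2.046 FPKM in groups 4, 3, 2 and 1 and passed in all 4 pairs of a high with a low group. Lce1m, at 8.962, 9.806, 1.77 and 2.423 FPKM in groups 4, 3, 2 and 1, also passed in those 4 pairs. The corneodesmosome gene Cdsn rose by 1.65 ± 0.40 and the late envelope gene Lce1f by 1.10 ± 0.31 in group 4 against group 1. In group 3 against group 1, 2 of 40 were higher (median 0.81), where 2.52% of all genes tested were. Against group 2, group 4 was higher in 6 of 39 (3.31% of all genes tested), with 1 lower, Crnn (cornulin). Group 3 was higher than group 2 in 2 of 40 (1.61% of all genes tested). None of 40 passed in group 4 against group 3 or in group 2 against group 1.

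Factors of squamous differentiation and of sites known in SPRR promoters differed by about 1 or less in most cases. All 21 listed were found, and 8 of 20 tested were higher in group 4 than in group 1, with a median difference of 0.86. Of all genes tested in that pair, 4.99% were higher. The AP-1 gene Fosl2 had 21.07, 19.96, 12.74 and 6.942 FPKM in groups 4, 3, 2 and 1, and was higher than in group 1 in groups 4 (1.47 ± 0.28), 3 (1.40 ± 0.43) and 2 (0.79 ± 0.18). The grainyhead gene Grhl3 had 32.24, 32.9, 13.79 and 11.37 FPKM in groups 4, 3, 2 and 1 and rose by 1.43 ± 0.29 in group 4 against group 1. Klf4, a factor of barrier formation, rose by 1.25 ± 0.38, Grhl1 by 1.17 ± 0.35, Ovol1 by 1.12 ± 0.28, the AP-1 gene Junb by 1.09 ± 0.30, Zfp750 by 1.09 ± 0.34 and the AP-1 gene Fosb by 1.06 ± 0.26 in that pair. In the other pairs, 2 of 20 were higher in group 3 against group 1 (2.52% of all genes tested) and 2 of 20 in group 4 against group 2 (3.31%). In group 3 against group 2 it was 1 of 20, Ovol1 (1.61% of all genes tested). In group 2 against group 1 it was 2 of 18, Fosl2 and Fos (0.587% of all genes tested), and in group 4 against group 3 none of 21.

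Further factors were named after their values were seen. The POU factor gene Pou2f3 had 2.093, 1.785, 0.8671 and 0.8575 FPKM in groups 4, 3, 2 and 1, and passed in no pair. Fosl1, an AP-1 gene, had 0.9741, 1.249, 0.05298 and 0.06693 FPKM in groups 4, 3, 2 and 1, and Jun had 19.52, 18.92, 18.92 and 15.22 FPKM; neither passed. Fos had 12.21, 12.81, 14.66 and 5.924 FPKM in groups 4, 3, 2 and 1. It was higher in group 2 than in group 1 by 1.18 ± 0.22, and its differences of 0.93 ± 0.31 in group 4 and 1.00 ± 0.42 in group 3, each minus group 1, did not pass. The Ets gene Elf3 had 11.84, 11.8, 4.788 and 6.404 FPKM in groups 4, 3, 2 and 1 and passed in no pair. Transcript levels say nothing of the activity of these factors.

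Keratinocyte and filiform papilla marker sums were higher in groups 4 and 3 than in groups 2 and 1, though not every member was. Basal keratinocyte markers, 11 of 12 with a level in every group, summed to 1577 and 1706 FPKM in groups 4 and 3, against 807.4 and 691.9 FPKM in groups 2 and 1. Krt5 was the largest part, at 1100, 1220, 472.5 and 342.4 FPKM in groups 4, 3, 2 and 1, and passed in no pair. Krt15 was nearly level (284.7, 289.1, 238.4 and 267.3 FPKM). Dst went the other way (9.964, 8.107, 14.04 and 12.11 FPKM). The single markers given here were named after their values were seen. Suprabasal keratinocyte markers, 8 of 13 with a level, summed to 752.7, 1222, 363.7 and 308.2 FPKM in groups 4, 3, 2 and 1. The largest part of the group 3 sum was Krt10, at 73.18, 407.3, 52.63 and 58.75 FPKM in groups 4, 3, 2 and 1. Krt4, Krt13, Krt6a, Krt6b and Krt16 had too many reads for the authors' program in at least 1 pair. Where read, Krt4 had 3111, 2868 and 2406 FPKM in groups 3, 2 and 1, and Krt16 had 2187 and 489.9 FPKM in groups 4 and 1. Between groups 4 and 1, 7 of 12 basal and 4 of 9 suprabasal markers tested were higher in group 4, where 4.99% of all genes tested were. Filiform papilla markers, 4 of 6 with a level, summed to 201.3, 225.4, 130.6 and 89.57 FPKM in groups 4, 3, 2 and 1. In group 4 against group 1, 2 of 4 tested were higher, Krt33b and Krt34, and none lower. Both passed in all 4 pairs of groups 4 and 3 with groups 2 and 1, as did the suprabasal markers Krt1 and Dsg3. Krt1 had 62.19, 66.66, 1.99 and 2.054 FPKM and Krt34 had 18.04, 20.51, 1.586 and 0.8202 FPKM in groups 4, 3, 2 and 1, so single markers differed far more than the sums. The sums of keratinocyte markers were thus 2.28 times (basal) and 2.44 times (suprabasal) as high in group 4 as in group 1. They leave out the markers without a level in every group. The Sprr2 sum was 344 times as high in that pair and the sum of the 10 genes 9.13 times. In group 3 against group 1 the sums were 2.47 and 3.96 times as high, and the Sprr2 sum 269 times.

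Marker sums of muscle, fat and connective tissue were lower in groups 4 and 3 than in groups 2 and 1. Skeletal muscle markers, 11 of 12 with a level, summed to 16885 and 14599 FPKM in groups 4 and 3, against 30482 and 33833 FPKM in groups 2 and 1, and 2 of 11 tested were lower in group 4 than in group 1. Adipocyte markers (10 genes) summed to 419.4, 358.6, 811.3 and 853 FPKM and fibroblast markers (7 genes) to 361.3, 359.3, 698 and 597.5 FPKM in groups 4, 3, 2 and 1. In group 4 against group 1, 4 of 9 adipocyte and 2 of 7 fibroblast markers tested were lower and none higher. Of all genes tested in that pair, 3.91% were lower.

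Salivary gland and neutrophil markers each went both ways. Salivary gland markers, 9 of 12 with a level, summed to 86.13, 992.9, 1290 and 2835 FPKM in groups 4, 3, 2 and 1, so groups 4 and 3, close in their Sprr levels, were far apart in these. The sums rest mainly on Prb1 and on Dcpp1, Dcpp2 and Dcpp3, all 4 of which were lower in group 4 than in group 1. Pip and Lpo followed the Sprr split instead, with 2.71, 13.39, 0.222 and 0.3526 FPKM for Pip and 4.136, 4.652, 0.4163 and 0.5988 FPKM for Lpo in groups 4, 3, 2 and 1. Lpo was higher in all 4 pairs of groups 4 and 3 with groups 2 and 1, and Pip in all of these but group 4 against group 1. Car6 was higher in group 3 than in groups 2 and 1, and lower in group 4 than in group 3.

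Of the neutrophil markers, 10 were found. Ltf, which salivary glands also express, had 19.71, 39.79, 44.47 and 73.6 FPKM in groups 4, 3, 2 and 1, and was lower in group 4 than in group 1. The other 9 summed to 122, 9.082, 2.197 and 2 FPKM in groups 4, 3, 2 and 1, and all 9 were under 1 FPKM in groups 2 and 1. Neutrophil markers were higher for 6 of 9 tested in group 4 against group 1 (4.99% of all genes tested) and 7 of 9 in group 4 against group 2 (3.31%). They were higher for 5 of 10 in group 4 against group 3 (0.171% of all genes tested), where no Sprr gene passed. Camp, a granule peptide gene, had 47.6 FPKM in group 4 and 0.2657 in group 3, and was listed at 0 in groups 2 and 1. Mmp9 was the 1 marker of 5 tested that was higher in group 3 against group 1 and against group 2. Of all genes tested, 2.52% and 1.61% were higher in these pairs. The part of tissue make-up in the Sprr differences was not tested.

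The genes most like the family in their 4-group profile were sought among 13292 candidates by the distance of the centred log2(FPKM + 1) profile to the median profile of the 10. The nearest was the row named Snord11 after a small nucleolar RNA, at a distance of 0.69; its locus in the files, from 59741850 to 59768354 on mm9 chromosome 1, is far longer than such an RNA, so its level cannot be tied to that RNA alone. It had 46.71 FPKM in group 4, 45.39 in group 3, and was listed at 0 in groups 2 and 1; the q in the authors' deposited table was 1 in every pair. Chi3l1, a chitinase-like protein gene, followed at 1.17, with 94.97, 44.57, 0.8192 and 0.9372 FPKM in groups 4, 3, 2 and 1. Defb3, a beta-defensin gene, stood at 1.20, with 832.4, 758.7, 26.91 and 22.16 FPKM in groups 4, 3, 2 and 1. Both passed in all 4 pairs of a high with a low group, with a q listed as 0 in the authors' deposited table. They were picked by these same group values, so a large difference in these pairs is no separate result. Mir31, a microRNA gene, at 1.56, and the predicted gene Gm5416, at 1.60, were listed at 0 in groups 2 and 1 and passed in no pair. The Mir31 locus runs only from 88556461 to 88556566 on mm9 chromosome 4, and poly-A RNA was sequenced. Its level therefore cannot be tied to the mature microRNA. Among the 10 genes themselves the distance ran from 0.16 for Sprr2g to 4.26 for Sprr1a and 5.21 for Sprr3, so Chi3l1 and Defb3 lay nearer to the family's median than Sprr1b (2.73), Sprr2k (2.86), Sprr1a and Sprr3 did. The distance rests on 4 group values.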

How the data were processed

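RNA of 12 tongue samples was measured, 3 per treatment group. Per the labels' protocols, poly-A RNA was sequenced; the series design text states HiSeq2000, the mm9 genome and Cufflinks. GSNAP 2011.11.17 and edgeR appear in the submitters' processing notes with no role given; no count test was run here. The deposited FPKM levels are 1 per gene and numbered group, per the file headers, in 6 tables of 2 groups each; each group's level was read from 1 of the tables that hold it, and the 5 to 21 tested rows per pair without a level there were left out. The p-value and q-value are the authors' deposited ones. The score beside them is the authors' test statistic, and the log2 ratio is also the authors'. Adjusting the deposited p over all 92458 tests by Benjamini-Hochberg gave the deposited q to within 3.4e-06. No Sprr gene was among the 23 genes over the authors' read limit.

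Differences are log2(FPKM + 1), higher-numbered minus lower-numbered group. The SE is the deposited log2 ratio over the statistic, by the delta method; 4 group variances per gene were resolved from the 6 pairs, and intervals are 1.96 SE either side (95%). Contrasts of 2 groups with the other 2 are normal deviates, 2-sided, Benjamini-Hochberg adjusted over all genes tested. Their rate of false calls with variances from groups this small was not tested. All p-values rest on the authors' statistic for groups of samples that the labels number 1 to 3. How far that statistic measures the spread between those samples was not checked, since values per sample were not used here. Python 3.11.15, numpy 2.4.6, scipy 1.17.1, pandas 2.3.3 and matplotlib 3.10.9 were used. After 1 was added to the start, the deposited loci of most Sprr rows equalled GENCODE M1 (mm9). Those of Sprr2a2, Sprr2h, Sprr2k, Sprr1a and Sprr3 differed in start, end or both, and Sprr3 differed most.

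The 10 genes, the lists, motifs and alternatives were chosen with earlier results of these data known. Named genes are the 10, every other Sprr row, the 5 nearest profiles, listed envelope genes and factors past the test in group 4 minus group 1 (at most 8 each, by size), and at most 6 neighbours; exceptions are stated where they occur. Neighbours are genes within 500 kb of the family. Alternatives were a q of 0.01, a difference of at least 1, no filter or 5 FPKM, adjustment within a comparison, Bonferroni, 1 variance per gene, centring, and pseudocounts of 0 and 0.1. Protein sequences were not analysed here.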

Additional observations from a re-analysis of the deposited data

How the results depend on the processing

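The alternatives left the counts of Sprr genes within 1.5 times of those reported. Over the settings tried the count was 8 to 10 in group 4 minus group 1, 8 to 9 in group 4 minus group 2, 8 in group 3 minus group 1 and in group 3 minus group 2, and 0 in group 4 minus group 3 and in group 2 minus group 1. The count of 10 came from centring and from Benjamini-Hochberg adjustment within the comparison, which let Sprr3 pass, and the counts of 8 where 9 are reported came from Bonferroni. Of 180 single differences recomputed, 179 kept their sign and side of the threshold. A changed pseudocount can alter neither the sign nor the deposited q, so only centring could have changed either. Sprr3 in group 4 minus group 1 passed after centring, at 1.58. The size of the Sprr2 differences depends on the pseudocount: Sprr2e in group 4 minus group 1 was 6.66 with 1, 9.50 with 0.1 and 11.18 with 0. With 1 variance per gene the genes called over the whole table numbered 474 in place of 1166 in group 4 minus group 1, 346 in place of 729 in group 4 minus group 2, 22 in place of 114 in group 2 minus group 1 and 392 in place of 241 in group 3 minus group 2; the cause was not tested. No paired analysis was possible because the tables hold group values and their columns carry no replicate numbers; for the same reason no replicate could be left out. Read depth is unknown, so the levels under 1 FPKM have no floor.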
